A study of Mus musculus with 20 samples.

Results

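Maternal mRNA decay and storage factors are the proteins that hold, deadenylate and decap the transcripts an embryo inherits from the oocyte. The mRNAs of 10 of them, Btg4, Cnot7, Cnot6l, Cnot1, Pan2, Zfp36l2, Dcp1a, Dcp2, Ybx2 and Pabpn1l, were taken by gene symbol from the 34937 genes in the count files. Each was found once, under 1 gene identifier, and the rule itself reads the symbol alone. They were followed in mouse embryos that lacked or had the maternal supply of G9a, the histone H3 lysine 9 methyltransferase encoded by Ehmt2.

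RNA was sequenced from single 8-cell embryos at embryonic day 2.5, of mixed background, from natural matings and of normal morphology. Ehmt2Mat embryos came from Ehmt2F/- mothers and Ehmt2Cntr embryos from Ehmt2F/+ mothers, and both kinds of mother carried the Zp3-Cre transgene, which recombines the floxed allele in growing oocytes. The 9 control embryos analysed were zygotically +/+ (6 embryos) or +/- (3 embryos), and the 10 Ehmt2Mat embryos were zygotically +/- (5 embryos, Ehmt2M/+) or -/- (5 embryos, Ehmt2M/Z). Control 4 was not analysed here. Zygotic genotype therefore differed between the groups together with the mother's, and the +/- embryos are the class found in both. The labels do not say which embryos shared a mother, and a p-value over embryos measures only the spread between these embryos. Levels are scaled to each embryo's library and do not measure its number of cells. In a whole embryo, fewer cells holding a transcript and less of it per cell cannot be told apart.

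Total counts ran from 8231646 to 30602434 and did not separate the groups (exact two-sided permutation test of the log2 totals, p = 0.367). The number of genes with a count was lower in the controls (median 12848, range 12068 to 16142) than in Ehmt2Mat embryos (median 14487.5, range 12754 to 16412; exact permutation p = 0.036), and its part in the results below was not tested. All 7 listed 8-cell embryo genes were present, with summed levels of 1232 to 2674 CPM (counts scaled to a common library size) in controls and 1137 to 1783 CPM in Ehmt2Mat embryos. Among them Tead4 (log2 fold change 0.90) and Tfap2c (0.75) rose and Klf5 (-1.49) and Sall4 (-1.07) fell in Ehmt2Mat. Of 8 cumulus and granulosa cell genes, 5 were at 0 in every embryo, and the summed level, nearly all of it Amhr2, was 22.4 to 109.5 CPM in controls and 42.1 to 164 CPM in Ehmt2Mat embryos. The 4 oviduct epithelium genes summed to 0.0904 to 386 CPM in controls and 10.0 to 2840 CPM in Ehmt2Mat embryos, most of it Ovgp1 (log2 fold change 3.41, edgeR adjusted p = 0.093, past the threshold by DESeq2), and the part of such cells or their RNA in the results was not tested. Ehmt2 itself had 66.6 to 253 CPM (median 133.0) in controls and 58.7 to 159 CPM (median 94.9) in Ehmt2Mat embryos, which differed by -0.47 on the log2 scale (SE 0.24, edgeR adjusted p = 0.233). Counts over the whole gene do not resolve the floxed exons, so they do not check the deletion.

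During oocyte growth transcripts are made, given short poly(A) tails and stored, and from meiotic maturation onwards they are read and then destroyed as the embryonic genome takes over. BTG4 brings the CCR4-NOT deadenylase to polyadenylated mRNAs at that transition, with CNOT1 as the scaffold and CNOT7 and CNOT6L as catalytic subunits. PAN2 is the catalytic subunit of a second deadenylase, ZFP36L2 binds AU-rich elements and recruits CCR4-NOT, and DCP2 removes the cap with DCP1A as its activator. YBX2 (MSY2) packages and stabilises stored mRNAs in germ cells, and PABPN1L is a poly(A)-binding partner of BTG4 in maternal mRNA clearance. By the 8-cell stage most of this clearance has already taken place in the mouse, so the levels below are what remained of, or had been newly made from, these genes.

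The members also differ in the DNA before their transcription starts. RefSeq promoter windows on GRCm38.p6 were at hand for 6 of the 10 genes, and the 250 bases before the start are printed for Btg4 and Pabpn1l, whose mRNAs are known mainly from the oocyte, and for Pan2, which is expressed broadly. Capitals mark CG dinucleotides, which read the same on both strands.
Btg4 (chr9:51115751-51116000, plus strand): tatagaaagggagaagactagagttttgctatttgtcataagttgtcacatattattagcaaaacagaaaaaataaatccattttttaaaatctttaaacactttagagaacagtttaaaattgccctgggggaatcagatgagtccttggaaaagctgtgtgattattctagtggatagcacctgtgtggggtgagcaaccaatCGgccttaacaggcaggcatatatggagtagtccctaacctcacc
Pabpn1l (chr8:122622736-122622985, minus strand): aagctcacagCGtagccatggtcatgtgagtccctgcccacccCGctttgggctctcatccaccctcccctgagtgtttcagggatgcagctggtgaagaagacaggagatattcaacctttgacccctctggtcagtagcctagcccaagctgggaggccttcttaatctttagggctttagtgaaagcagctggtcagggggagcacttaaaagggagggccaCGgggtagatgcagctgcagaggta
Pan2 (chr10:128303085-128303334, plus strand): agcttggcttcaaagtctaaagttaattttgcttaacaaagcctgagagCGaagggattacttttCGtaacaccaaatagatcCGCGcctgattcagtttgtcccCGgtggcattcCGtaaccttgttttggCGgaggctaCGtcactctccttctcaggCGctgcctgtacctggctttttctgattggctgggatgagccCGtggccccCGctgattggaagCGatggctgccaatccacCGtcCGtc
The Btg4 window held 1 CG dinucleotide and the Pabpn1l window 3, against a median of 6 over the 32851 windows in the table. No more CG dinucleotides than these were found in 18.8% of all windows for Btg4 and in 37.8% for Pabpn1l. Pan2 held 14 (72.7% of windows had no more), Dcp1a 23, Ybx2 35 and Cnot6l 37 (98.1% of windows had no more). Ybx2, a germ cell gene like Btg4, thus lay towards the other end of the range from it. Ybx2 had 2 RefSeq starts and Cnot6l 3, and for each only the start nearest the annotated gene start was used. The Cnot6l window (chr5:96161991-96162240, minus strand) lay inside the annotated gene, which begins at 96164171. The Ybx2 window (chr11:69935649-69935898, plus strand) ran past the annotated gene start at 69935796. The letters CANNTG, the E-box core, which also reads the same on both strands, occurred 2 times for Btg4, 4 times for Pabpn1l, once each for Dcp1a and Ybx2 and not in the Pan2 or Cnot6l window, and 66.2% of all windows held at least 1. These are matches of letters only.

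Between Ehmt2Mat and Ehmt2Cntr embryos many transcripts differed and no member passed the test. Of the 11754 genes that passed the filter on low counts, 9.35% were called at an adjusted p below 0.05 in edgeR's quasi-likelihood test (514 genes, 4.37%, higher and 585 genes, 4.98%, lower in Ehmt2Mat). Of the 10 members, 9 passed the filter for edgeR and 0 were called, and of all 10 DESeq2 called 0. DESeq2 called 13.6% of the genes it gave an adjusted p. At an unadjusted p below 0.05 edgeR gave 3 of the 9, Btg4, Dcp2 and Cnot7, all with lower levels in Ehmt2Mat, beside 23.3% of all tested genes in either direction and 12.3% with lower levels. The log2 fold change was below 0 for 7 of the 9 members, against 52.4% of all tested genes, and its median was -0.46 for the members and -0.04 for all genes. The ranges of both groups overlapped for each member, and for 0.519% of all tested genes they did not. Pabpn1l failed the filter on low counts.

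**Figure D1:**
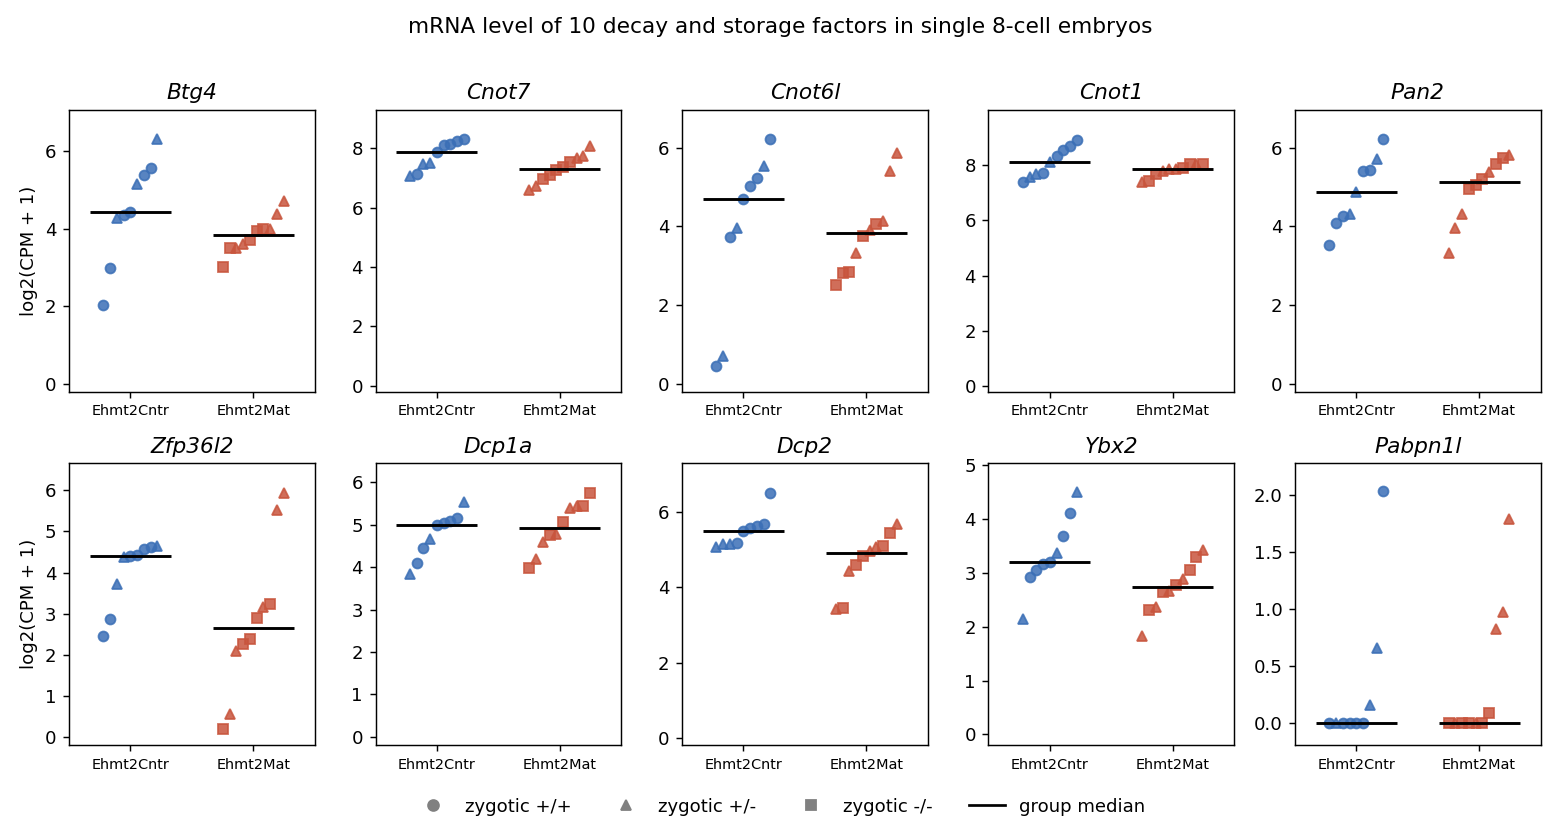
Each point is 1 embryo, the vertical axis is log2(CPM + 1), the marker gives the zygotic genotype and the bar the group median. The groups overlapped for all 10 genes; Btg4 reached 77.6 CPM among controls and 25.1 CPM among Ehmt2Mat embryos, and Zfp36l2 spread mainly among the Ehmt2Mat embryos.

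Btg4 (ENSMUSG00000032056, chr9:51116001-51119700, plus strand, GRCm38) had the largest difference in size among the 9 members in the fit over all 19 embryos. Its level was 3.10, 20.4 and 77.6 CPM (lowest, median and highest) in controls and 6.99, 13.3 and 25.1 CPM in Ehmt2Mat embryos. The 4 highest embryos were controls, but so were the 2 lowest, and all Ehmt2Mat embryos lay inside the control range. Fitted over all 19 embryos, the log2 fold change was -1.08 (SE 0.43, 95% interval -1.96 to -0.21, unadjusted p = 0.018, edgeR adjusted p = 0.113), with 9 of 10 Ehmt2Mat embryos under the control median. Without control 6, the lowest embryo of all at 67 counts, Btg4 passed the threshold (log2 fold change -1.24, edgeR adjusted p = 0.043), and over the alternatives its adjusted p ran from 0.043 to 0.673. Without control 3, the highest embryo, Btg4 was at -0.76 (edgeR adjusted p = 0.283), beside -0.80 for Ybx2 and -0.78 for Dcp2. Among the +/- embryos of both groups it was -1.43 (edgeR adjusted p = 0.673), in a fit that called 1 of 13401 genes. The coefficient of variation was 77.9% over the controls and 37.3% over the Ehmt2Mat embryos.

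Cnot7 (ENSMUSG00000031601, chr8:40492540-40515847, minus strand) encodes the CAF1-type catalytic subunit of CCR4-NOT. Its level was 134, 233 and 313 CPM in controls and 95.6, 157 and 267 CPM in Ehmt2Mat embryos. Of the controls, 4 stood above every Ehmt2Mat embryo and 3 Ehmt2Mat embryos below every control, with the rest mixed. Its log2 fold change was -0.46 (SE 0.21, 95% interval -0.90 to -0.02, unadjusted p = 0.041, edgeR adjusted p = 0.191). Within the +/- embryos it was 0.10 (edgeR adjusted p = 0.996). The 3 control +/- embryos, at 134, 175 and 181 CPM, lay below most of the +/+ controls, whose median was 278 CPM. Of the Cnot7 exon length, 4.24% is also annotated to Zdhhc2 on the other strand, and the unstranded counts cannot divide reads there.

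Cnot1 (ENSMUSG00000036550, chr8:95719451-95807462, minus strand), the scaffold, had 163, 272 and 481 CPM in controls and 166, 231 and 262 CPM in Ehmt2Mat embryos. The controls ran 2.94-fold from lowest to highest and the Ehmt2Mat embryos 1.57-fold, a difference in spread that was not tested. The coefficient of variation was 38.4% in controls and 15.9% in Ehmt2Mat embryos, beside medians of 58.6% and 50.9% over all tested genes. Of the 9 tested members, 5 had the smaller coefficient in controls and 4 in Ehmt2Mat embryos. All 10 Ehmt2Mat embryos were under the control median, and 5 of the controls were above all of them. For Cnot1 the log2 fold change was -0.38 (SE 0.19, 95% interval -0.78 to 0.02, edgeR adjusted p = 0.242), and it was -0.01 within the +/- embryos. Of 50-base windows in Cnot1 transcripts, 4.76% also occur in other genes, mainly Gm6158.

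Cnot6l (ENSMUSG00000034724, chr5:96070333-96164171, minus strand), the CCR4-type catalytic subunit, varied the most among controls of the 9 tested members. It had 0.370, 25.1 and 73.4 CPM in controls and 4.68, 13.3 and 57.4 CPM in Ehmt2Mat embryos. Controls 1 and 6 gave 11 and 8 counts, lower than any Ehmt2Mat embryo, while the highest embryo was also a control. Its log2 fold change of -0.54 had an SE of 0.65 and a 95% interval of -1.88 to 0.80 (edgeR adjusted p = 0.685), so neither a fall nor a rise of that size could be told from 0.

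Pan2 (ENSMUSG00000005682, chr10:128303335-128321358, plus strand) had 10.5, 28.2 and 73.1 CPM in controls and 9.02, 34.0 and 55.0 CPM in Ehmt2Mat embryos. The ranges lay over each other almost completely. Between group means the log2 fold change was 0.01 (SE 0.37, 95% interval -0.75 to 0.77, edgeR adjusted p = 0.989), an interval that leaves room for changes in either direction.

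Zfp36l2 (ENSMUSG00000045817, chr17:84183931-84187947, minus strand) had 4.52, 20.1 and 23.9 CPM in controls and 0.146, 5.33 and 60.5 CPM in Ehmt2Mat embryos. The Ehmt2Mat embryos split around the controls: embryos 2 and 10, at 45.1 and 60.5 CPM, stood above every control, and 5 of the 10 stood below every control. Embryos 3 and 7 gave 4 and 3 counts. An average over these, the log2 fold change was -0.28 (SE 0.70, 95% interval -1.73 to 1.17, edgeR adjusted p = 0.869), and 8 of 10 Ehmt2Mat embryos were under the control median. The coefficient of variation was 43.7% in controls and 149% in Ehmt2Mat embryos. Leaving out single embryos moved the value between -0.94 and -0.13, with no call in any of the 19 fits.

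The decapping genes differed from each other. Dcp2 (ENSMUSG00000024472, chr18:44380502-44424969, plus strand), the decapping enzyme, had 32.7, 43.8 and 90.3 CPM in controls and 9.81, 28.9 and 50.8 CPM in Ehmt2Mat embryos. Of the Ehmt2Mat embryos, 7 lay below every control, and control 9 lay above all other embryos. The 3 control +/- embryos, at 32.7, 34.4 and 34.6 CPM, lay below every +/+ control. The +/+ controls had a lowest value of 34.9 CPM and a median of 47.7 CPM. For Dcp2 the log2 fold change was -0.72 (SE 0.30, 95% interval -1.34 to -0.11, unadjusted p = 0.024, edgeR adjusted p = 0.135), and -0.25 within the +/- embryos (edgeR adjusted p = 0.990). Dcp1a (ENSMUSG00000021962, chr14:30479565-30527056, plus strand), the activator, had 13.2, 31.02 and 45.8 CPM in controls and 14.7, 29.5 and 53.1 CPM in Ehmt2Mat embryos. As many Ehmt2Mat embryos were above the control median as below it. Its log2 fold change was 0.20 (SE 0.29, 95% interval -0.39 to 0.79, edgeR adjusted p = 0.748).

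Ybx2 (ENSMUSG00000018554, chr11:69935796-69941605, plus strand), the storage protein gene, was low in all embryos, with 31 to 372 counts. It had 3.44, 8.17 and 21.6 CPM in controls and 2.54, 5.64 and 9.69 CPM in Ehmt2Mat embryos. The 3 highest embryos were controls, and 8 of 10 Ehmt2Mat embryos were under the control median. The log2 fold change was -0.79 (SE 0.42, 95% interval -1.66 to 0.08, edgeR adjusted p = 0.263), with a DESeq2 adjusted p of 0.095.

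Pabpn1l (ENSMUSG00000069867, chr8:122619471-122622739, minus strand) gave 0 counts in 6 of 9 controls and in 6 of 10 Ehmt2Mat embryos. A count of 0 allows up to 3 counts, which is 0.136 to 0.363 CPM in these embryos, and such limits cover counting error only. The highest levels were 3.10 CPM in control 8, from 81 counts, and 2.46 CPM in Ehmt2Mat 2, from 44 counts. In Ehmt2Mat the 3 embryos above 3 counts were all zygotically +/-. Without the filter its log2 fold change was 0.03 with a 95% interval of -3.31 to 3.37 (edgeR adjusted p = 0.995), by DESeq2 it was 0.04 (SE 2.14), and within the +/- embryos it was 1.78 (95% interval -2.90 to 6.46), so a difference in either direction was not detectable at these counts.

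**Figure D2:**
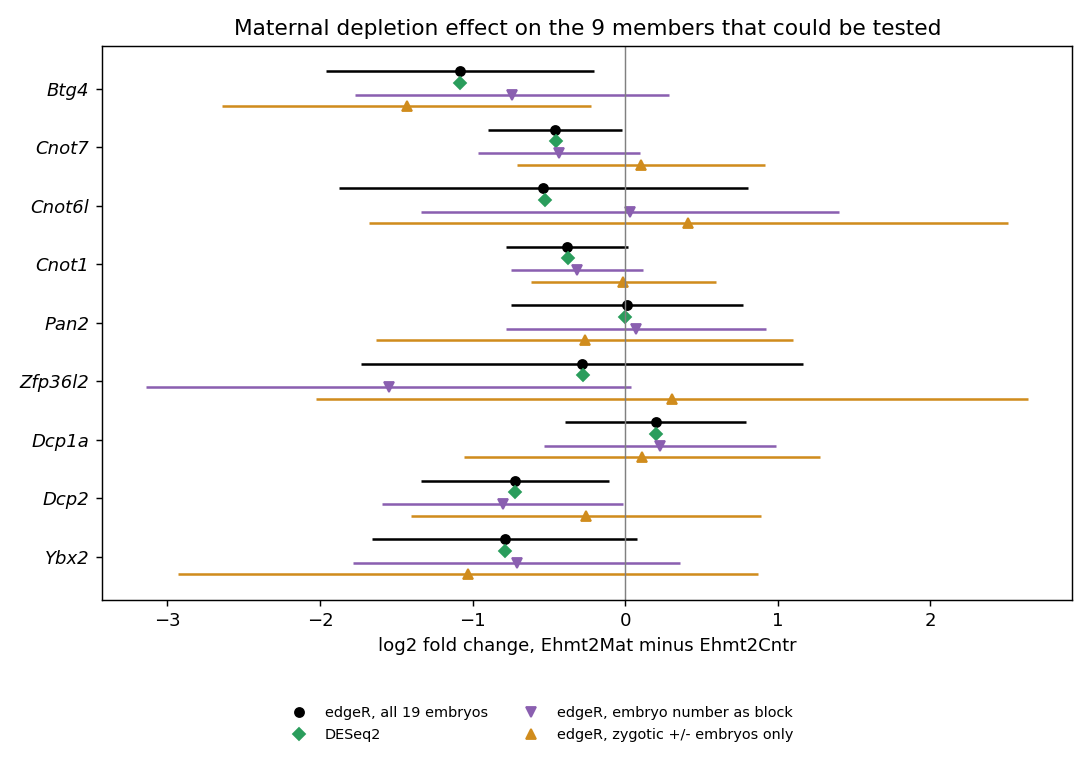
The horizontal axis is the log2 fold change (Ehmt2Mat minus Ehmt2Cntr) for the 9 tested members under 4 fits, and lines are 95% intervals (not drawn for DESeq2). Estimates for Btg4, Dcp2, Ybx2 and Cnot1 were below 0 under all 4, whereas Cnot7, Cnot6l and Zfp36l2 were above 0 among the +/- embryos. In that fit Cnot1 was at -0.01 (95% interval -0.62 to 0.59) and Dcp2 at -0.25 (-1.40 to 0.89).

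Levels were set against each other between genes per length, and the order depends on that choice. By undivided CPM the control median of Btg4 (20.4) lay below those of Cnot7, Cnot1, Dcp2 (43.8), Dcp1a (31.02), Pan2 (28.2) and Cnot6l (25.1). It lay above those of Zfp36l2 (20.1), Ybx2 (8.17) and Pabpn1l (0). The scale used here is CPM per kb of annotated exon, and since the cDNA was 3′ biased it reads too low for long transcripts such as Cnot6l, whose exons sum to 10313 bases. By control medians the order was Cnot7 (40.0), Cnot1 (32.4), Btg4 (15.6), Pan2 (6.34), Zfp36l2 (5.69), Dcp1a (5.52), Dcp2 (5.03), Ybx2 (4.33), Cnot6l (2.43) and Pabpn1l (0). In that order the ranges of every neighbouring pair overlapped, so no step between neighbours exceeded the spread over embryos. In Ehmt2Mat embryos Cnot1 (27.6) and Cnot7 (27.02) were again the highest and Btg4 (10.1) next, and Btg4 was below Cnot1 in 10 of 10 embryos. Zfp36l2 had rank 5 in controls and rank 8 in Ehmt2Mat embryos, at a median of 1.51.

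**Figure D3:**
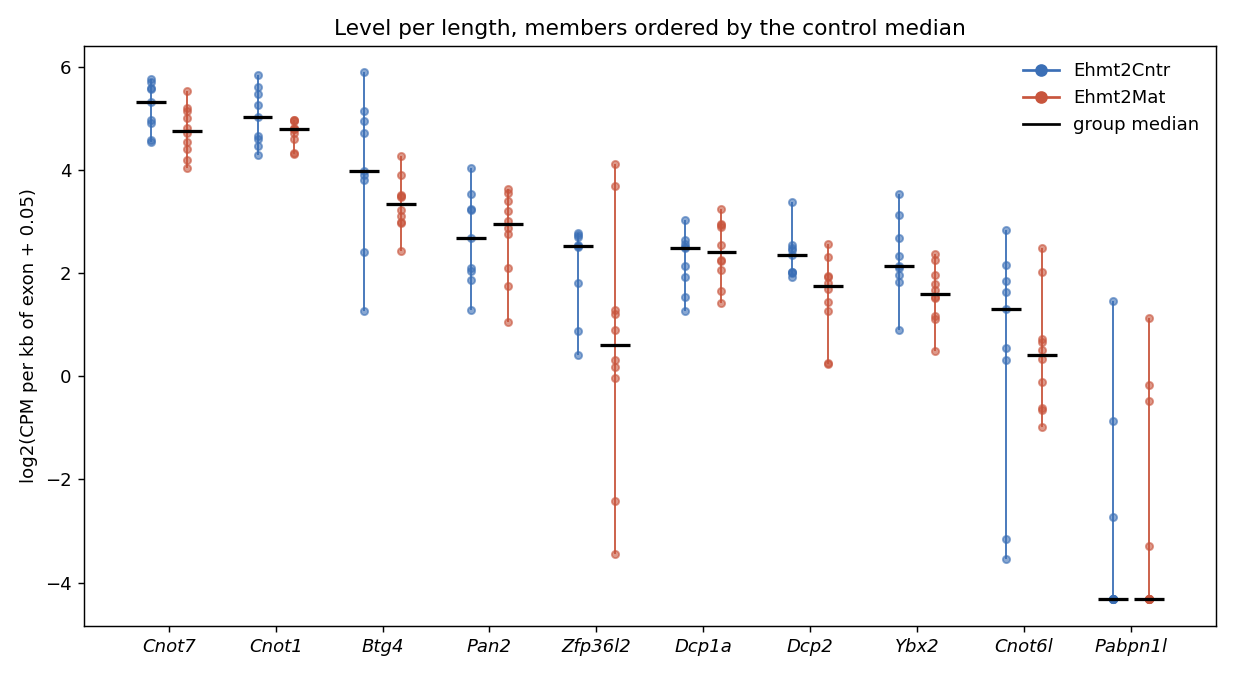
The vertical axis is log2(CPM per kb of exon + 0.05), points are embryos, the thin line spans a group's range and the black bar is its median. By group medians Cnot7 and Cnot1 lie at the top. Cnot6l, which is also a CCR4-NOT gene, reaches down to few counts, as does Zfp36l2, and Pabpn1l reaches 0.

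The embryo's own genotype was compared within Ehmt2Mat. Ehmt2M/Z against Ehmt2M/+ embryos gave 0 calls among 12195 tested genes by edgeR (0% called), with 270 genes (2.21%) at an unadjusted p below 0.05, and 15 of 15148 by DESeq2. Of the 9 tested members 0 were called by either tool, and 2 had an unadjusted p below 0.05. Cnot6l had 9.05, 14.1, 16.6, 41.2 and 57.4 CPM in the 5 Ehmt2M/+ embryos and 4.68, 6.02, 6.20, 12.5 and 15.8 CPM in the 5 Ehmt2M/Z embryos. The groups overlapped, with 2 Ehmt2M/+ embryos far above the rest. The log2 fold change was -1.61 (SE 0.58, unadjusted p = 0.014, edgeR adjusted p = 0.9997). Zfp36l2 had 0.485, 3.25, 7.96, 45.1 and 60.5 CPM in Ehmt2M/+ and 0.146, 3.80, 4.22, 6.44 and 8.37 CPM in Ehmt2M/Z embryos. The same 2 Ehmt2M/+ embryos, 2 and 10, were the high ones for both genes. Its log2 fold change was -2.35 (SE 1.07, unadjusted p = 0.046, edgeR adjusted p = 0.9997). For the other 7 tested members the log2 fold change lay between -0.46 (Btg4) and 0.50 (Pan2).

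The wider pathway was read from 6 lists of 87 genes in the files, the members included. Of the 77 that could be tested, 15 were called (4 higher and 11 lower, 19.5%, beside 9.35% of all genes), DESeq2 called 19, and the median log2 fold change was -0.36. All 15 were genes other than the members. Of them, 8 were called whichever single embryo was left out, and 0 of the 15 were called within the +/- embryos, where 1 gene in all was. The lists were chosen with earlier results of these data known. In the fit over genes with at least 10 counts in every embryo, 1375 of 7154 genes were called. That share of all genes is close to the 19.5% of list genes called under the usual filter. Whether list genes were called more often than other genes at like counts was not tested.

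Among the 16 tested CCR4-NOT and BTG/TOB genes 2 were higher and 2 lower. Cnot11, a subunit of the N-terminal module, fell by 1.42 on the log2 scale (SE 0.29, edgeR adjusted p = 0.0033), from a control median of 49.4 CPM to 17.5 CPM. Cnot10, its partner in that module, rose by 0.93 (SE 0.23, edgeR adjusted p = 0.011), from 71.6 to 118 CPM. Cnot6, the paralogue of Cnot6l, fell by 1.02 (SE 0.29, edgeR adjusted p = 0.028), a call lost without control 8, control 9 or Ehmt2Mat 9 (-0.96 to -0.87), and its log2 fold change was -0.37 within the +/- embryos. Btg1, an antiproliferative family member like Btg4, rose by 1.30 (SE 0.33, edgeR adjusted p = 0.013), from 50.2 to 133 CPM. Genes of the same complex thus moved in both directions. None of the 8 other deadenylase genes was called by edgeR (3 at an unadjusted p below 0.05, 1 by DESeq2).

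Of the 14 tested decapping and 5′ to 3′ decay genes 2 were lower, both of them subunits of the LSM1-7 ring, which binds shortened tails ahead of decapping. Lsm1 fell by 0.69 (SE 0.20, edgeR adjusted p = 0.032), and Lsm2, which also belongs to the nuclear LSM2-8 ring, by 1.03 (SE 0.31, edgeR adjusted p = 0.035). The ring genes Lsm3 (log2 fold change 0.22), Lsm4 (0.09), Lsm5 (0.32) and Lsm6 (-0.20) were not called, and Lsm7 was not tested. Over the whole list the median log2 fold change was 0.06. The Lsm1 call was lost without control 2, 5 or 8 or Ehmt2Mat 2, 4, 5 or 9 (-0.68 to -0.63), and the Lsm2 call without control 1, 2, 3 or 5 or Ehmt2Mat 1, 2, 3, 4, 7, 8 or 9 (-1.01 to -0.90). Within the +/- embryos Lsm1 was at -0.37.

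The list of decay adaptors and uridylation enzymes had the most calls, 6 of 17 tested, with 5 lower. Pum2, whose protein binds mRNA and recruits CCR4-NOT, fell by 0.88 (SE 0.18, edgeR adjusted p = 0.0029). Its medians were 598 CPM in controls and 319 CPM in Ehmt2Mat embryos, and 9 of 10 Ehmt2Mat embryos were below every control. The Argonaute genes Ago1 and Ago2, whose proteins act with small RNAs, fell by 1.38 (SE 0.40, edgeR adjusted p = 0.030) and 0.69 (SE 0.18, edgeR adjusted p = 0.019). The Ago1 call was lost without control 3, 6 or 7 or Ehmt2Mat 1 or 5 (-1.33 to -1.17). Ythdf3, an N6-methyladenosine reader, fell by 1.63 (SE 0.50, edgeR adjusted p = 0.038), a call lost without control 6, 7, 8 or 9 or Ehmt2Mat 1 to 7 or 9 (-1.66 to -1.36). Within the +/- embryos its log2 fold change was -0.016. Zfp36, the paralogue of Zfp36l2, rose by 1.13 (SE 0.31, edgeR adjusted p = 0.022), from a median of 30.8 CPM to 62.6 CPM.

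Of the 15 tested storage and translational masking genes 2 were lower and 0 higher. Ybx3, the paralogue of Ybx2, fell by 0.94 (SE 0.22, edgeR adjusted p = 0.0078), from a control median of 637 CPM to 373 CPM, and 9 of 10 Ehmt2Mat embryos were below every control. Igf2bp2, an mRNA-stabilising protein gene, fell by 0.72 (SE 0.18, edgeR adjusted p = 0.013), with a log2 fold change of -0.44 within the +/- embryos. Among the 7 tested poly(A)-binding and PABP-regulating genes, Paip2b, which encodes an inhibitor of PABP, rose by 0.76 (SE 0.23, edgeR adjusted p = 0.042), a call lost without control 3, 5, 7, 8 or 10 or Ehmt2Mat 2, 3, 4, 5, 7 or 8 (0.67 to 0.76).

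**Figure D4:**
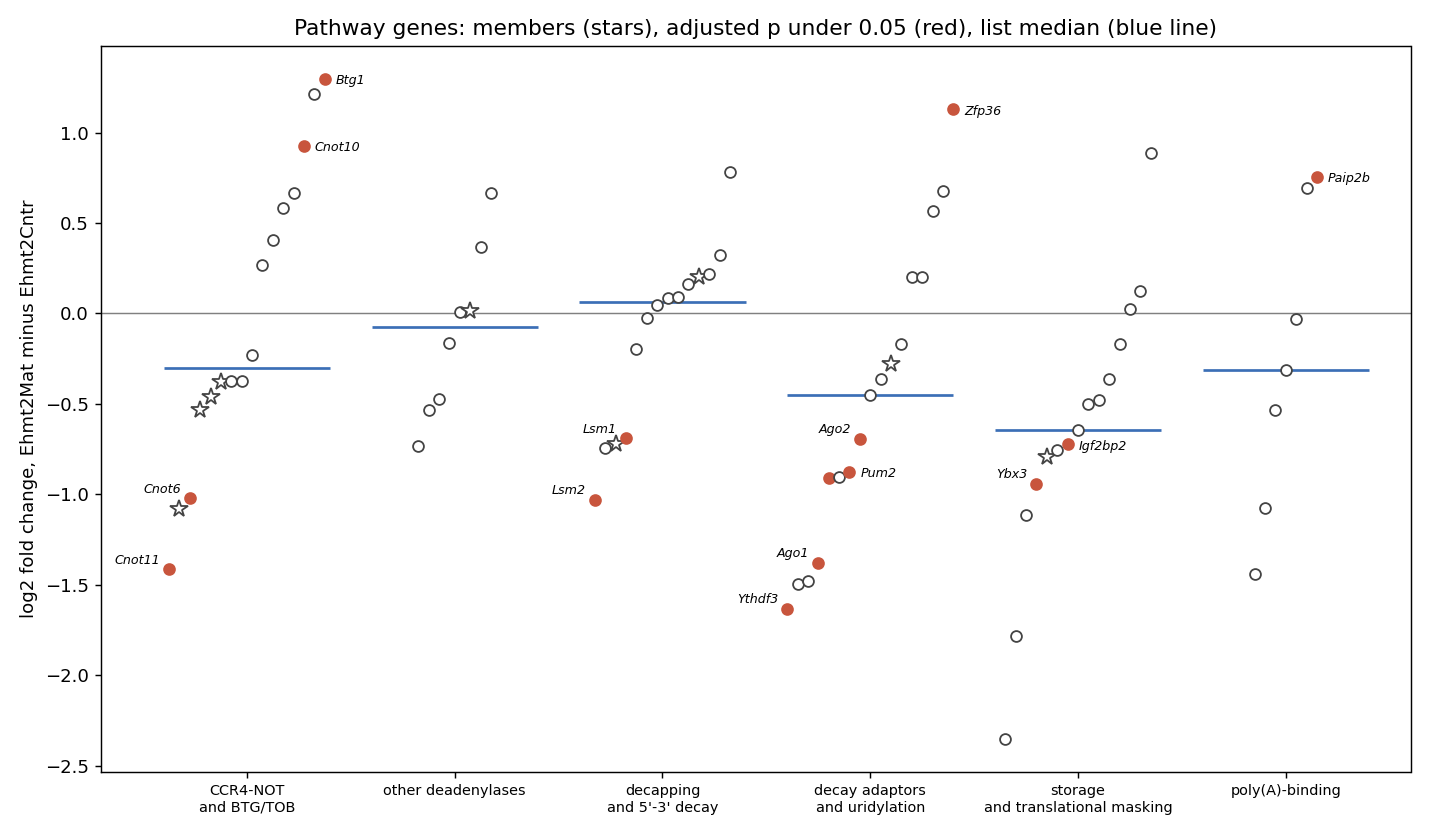
Each point is 1 tested gene of 6 pathway lists, with the log2 fold change (Ehmt2Mat minus Ehmt2Cntr) on the vertical axis, members as stars, genes with an adjusted p below 0.05 in red (most with their names), and the list median as a line. The 15 red points are 4 above 0 and 11 below, and all 9 stars are open.

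Other mRNAs stored in oocytes were read beside the members. The 8 listed genes (Zp1, Zp2, Zp3, Gdf9, Bmp15, Mos, Oosp1 and H1foo) summed to 51.5 to 324 CPM in controls and 113 to 352 CPM in Ehmt2Mat embryos. Of the 7 tested 1 was called (14.3%, beside 9.35% of all tested genes). It was Oosp1, which rose by 2.70 (SE 0.54, edgeR adjusted p = 0.0028) from a median of 8.46 CPM to 63.0 CPM. The log2 fold change was below 0 for 5 of the 7, with a median of -0.25 over the list, beside 52.4% of all tested genes below 0. Gdf9, at 40.0 and 37.1 CPM, had a log2 fold change of -0.03 (SE 0.29, edgeR adjusted p = 0.970), and for Zp3 it was -0.46 (SE 0.41, edgeR adjusted p = 0.554).

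For each tested member the transcripts that varied most like it from embryo to embryo were found among the 11754 genes, by Pearson's r of log2 CPM over the 19 embryos after each group's mean was taken out. Btg4 was followed most closely by Gnai1 (r = 0.84) and Cdc42se2 (0.83), Cnot7 by Atp6v1c1 (0.74) and Ttll11 (0.71), Cnot6l by Zmynd11 (0.83) and Cmas (0.80), and Cnot1 by Ezh2 (0.82) and Smyd4 (0.80). For Zfp36l2 they were Plekha7 and Nsd3 (0.87 each), for Dcp1a Gm28867 (0.82) and Zfp395 (0.75), and for Dcp2 Fopnl (0.90). Ybx2 went with Pidd1 (0.83) and Arf1 (0.81), and Pan2 with Gtf2h4 (0.79) and Eapp (0.77). No member was among the 2 nearest genes of another. The 19 points share each embryo's library and depth, and these are the highest values out of all tested genes.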

How the data were processed

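Single-end 50 bp reads from single embryos were processed by the authors: cDNA amplification with a 3′ bias, alignment with TopHat2 (per the labels and the study's methods), and counting with featureCounts 1.5.0, per the file headers, against Ensembl 82 genes on GRCm38, with multi-mapping and multi-overlapping reads counted and a minimum overlap of 10 bases. The deposited values are raw counts per gene for 19 embryos; the authors' methods give SeqMonk as counter, the headers featureCounts. Gene symbols were paired with 34599 of 34937 identifiers.

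The counts were tested with edgeR 4.0.16 (R 4.3.3; filterByExpr, TMM, quasi-likelihood F test, Benjamini-Hochberg over all tested genes, threshold 0.05) for Ehmt2Mat against Ehmt2Cntr, and for Ehmt2M/Z against Ehmt2M/+ within Ehmt2Mat. DESeq2 1.42.0 and other normalizations, filters and sample sets were alternatives. The scripts were tested on simulated data. CPM used TMM-scaled library sizes. Library measures were compared by exact permutation over 92378 splits. Total counts ran from 8231646 to 30602434. The 9 members that passed the edgeR filter over all embryos had 3 to 10389 counts per embryo. Embryo numbers recur in both groups, but 0 of 9 same-numbered pairs had correlated deviations above 0.1, so they were not taken as pairs. Members and lists were chosen with earlier results of these data known. The genes named are the members, Ehmt2, list genes past the threshold and the 2 genes most like each member. Marker genes and LSM ring genes not past the threshold were named after their values were seen. Samd4b had no identifier match. Values of some genes that the rule takes in are not reported here.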

Additional observations from a re-analysis of the deposited data

Results flagged for a closer look

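Of 26 groups of values examined (levels of the members and library measures in each maternal group), 3 held 1 embryo far from the others by Dixon's test. Chance marks about 1 group in 20. Pabpn1l was 2.03 in control 8 on the log2(CPM + 1) scale, against 0.65 in the next control. Dcp2 was 6.51 in control 9 on that scale, against 5.69 in the next control. No member was called with or without control 9. Leaving control 9 out moved the Dcp2 log2 fold change from -0.72 (edgeR unadjusted p = 0.024) to -0.54 (edgeR unadjusted p = 0.077, adjusted p = 0.285). Without control 9, Dcp2 was thus no longer at an unadjusted p below 0.05. The number of genes detected was 16142 in control 10, against 13230 in the next control. Their causes were not tested.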

How the results depend on the processing

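Over normalizations, filters, DESeq2 and single embryos left out, the count of members called stayed at 0 except without control 6, where it was 1 (Btg4), so the range was 0 to 1; for the Ehmt2M/Z comparison it was 0 in all fits. Over all genes, leaving out 1 embryo gave 884 to 1262 calls beside 1099, and over the pathway lists 11 to 17 beside 15. DESeq2 called 2068 genes and 1 gene was called within the +/- embryos, where 0 pathway genes were and the fit had only 8 embryos. With embryo number as a replicate block, which is no pairing here (correlations -0.16 to 0.086, and 0 controls correlated best with their own number), 693 genes and 9 pathway genes were called.

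Some uncalled log2 fold changes of members changed sign. Cnot7 (0.10), Cnot6l (0.41), Zfp36l2 (0.31) and Pan2 (-0.27) did so within the +/- embryos, and Cnot6l (0.031) with the replicate block, under which Zfp36l2 was -1.55 (95% interval -3.14 to 0.04), Dcp2 -0.80 and Btg4 -0.74, none called. Pan2 was -0.00061 with RLE, -0.00042 without mitochondrial genes, -0.00067 with DESeq2 and -0.021 with a minimum of 10 counts per embryo, and -0.11 to 0.24 with 1 embryo left out. Between Ehmt2M/Z and Ehmt2M/+, Cnot1 was -0.0041 with DESeq2 and -0.070 to 0.107 with 1 embryo left out, Dcp1a -0.055 to 0.36, Dcp2 -0.30 to 0.23 and Ybx2 -0.018 to 0.43. The causes were not tested. Pabpn1l, Cnot6l and Zfp36l2 had embryos with 11 counts or fewer, so their values rest on few reads there.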
